A study of Mus musculus with 6 samples.

Results

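The Cep genes, named for centrosomal proteins, and 3 further genes of the same organelle (Pcnt, Cdk5rap2 and Numa1) were followed in polyadenylated RNA of mouse oocytes. Protein-coding genes whose symbol is Cep and a number, together with those 3, made up 39 of the 54532 genes counted, and 38 of them had enough counts to be tested. The oocytes came from C57BL/6J mice aged 6 to 7 weeks. There were 3 control libraries and 3 libraries from mice given recombinant mouse AMH (anti-Müllerian hormone, a TGF-beta family hormone of granulosa cells) at 300 ng by daily intraperitoneal injection that began at the age of 21 days. Whether control mice were injected, how many oocytes of which stage were pooled, whether cumulus cells were stripped off and whether each library is a separate animal are not given in the labels, so the p-values here reflect only how far the 6 libraries vary, and that variation may be technical.

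A centrosome is a pair of centrioles within pericentriolar material, the protein matrix that anchors gamma-tubulin and starts microtubules. Mouse oocytes lose their centrioles while they grow, and the meiotic spindle is instead built from acentriolar microtubule organizing centres that contain pericentrin and other proteins of the matrix. Other Cep proteins build centrioles, hold them together, or turn the older one into the base of a cilium, a structure of follicle and oviduct cells rather than of oocytes.

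Each library held 66392859 to 72109080 counts. Oocyte transcripts were abundant in all 6, and 29 or 30 of 30 oocyte markers were detected in each. Gdf9, an oocyte growth factor, had 11303, 11908 and 10036 CPM (counts relative to a library size scaled with TMM) in controls 1, 2 and 3, against 5540, 5454 and 10180.5 CPM in AMH 1, 2 and 3. AMH 3 was nearer to the controls than to AMH 1 and 2 for this gene, and over all genes the pair of libraries with the smallest difference in counts was control 3 with AMH 3 (chi-square per degree of freedom 55.9). Counts of genes past the test are therefore given with and without control 3 and AMH 3.

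Most centrosomal transcripts had lower values in the AMH libraries with TMM scaling, and higher ones (35 of 38) when the libraries were scaled to oocyte markers. Of the 38 tested genes 29 had a negative and 9 a positive log2 fold change, AMH over control, whereas 50.3% of all 18868 tested genes were negative and 49.7% positive. The median was -0.50 for the centrosomal genes and -0.01 for all tested genes. In 20 of the 38 every AMH library lay below every control, as it did in 23.3% of all tested genes, and in 4 every AMH library lay above every control, as in 26.9% of all. Summed over the 39 genes there were 3690, 3757 and 3004 CPM in the controls and 2089, 2271 and 2739 CPM in AMH 1, 2 and 3. Oocyte markers were lower by more, with 29 of 29 tested genes negative, a median of -0.78 and 20 without overlap, and their summed CPM in AMH libraries was 0.627 of that in control, against 0.679 for the centrosomal genes. The difference between those lists was not tested. In bulk RNA such as this, fewer cells of a type and less RNA per cell cannot be told apart.

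At an adjusted p of 0.05, edgeR's quasi-likelihood method called 0 of the 38 and 0% of all tested genes in either direction, with a lowest adjusted p of 0.116, which was also the lowest of all 18868. At an unadjusted p under 0.05 there were 19 lower and 2 higher, against 17.3% and 20.2% of all tested genes. DESeq2 called 3 lower, which were Pcnt (DESeq2 adjusted p = 0.0438), Cep41 (0.0450) and Cep120 (0.0495), and 0 higher, while it called 6.29% of all genes lower and 16.4% higher. Without control 3 edgeR called 12 of 39 lower and 3 higher (11.2% and 26.8% of all), and without AMH 3 it called 6 lower and 0 higher (6.73% and 1.45% of all). Leaving out control 3 and AMH 3 together, a setting chosen after seeing the data, gave 19 lower and 5 higher (21.6% and 29.4% of all).

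**Figure D1:**
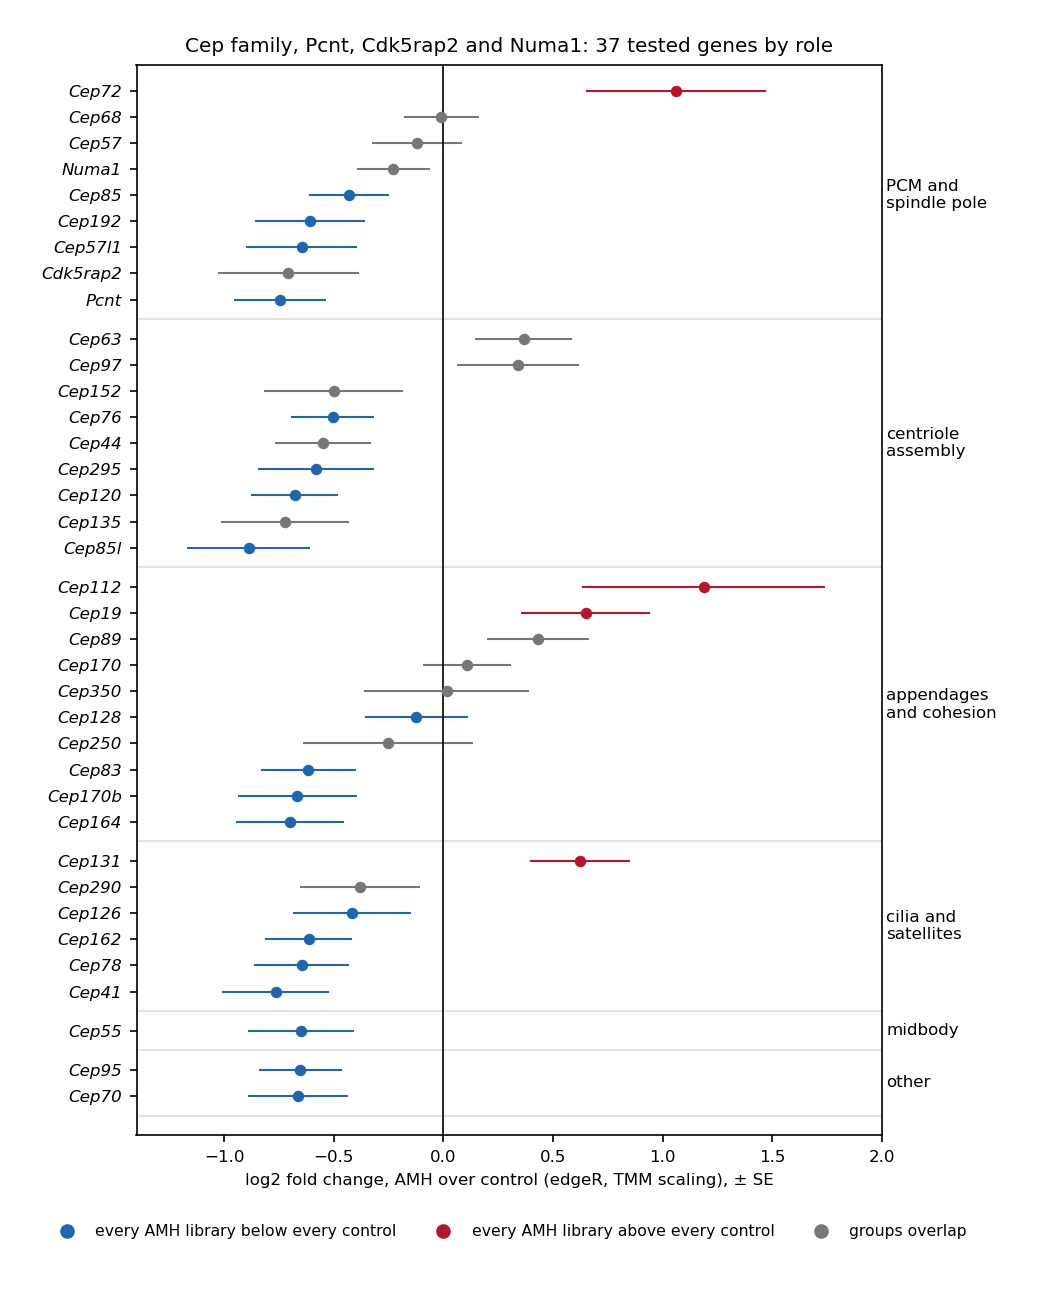
Log2 fold change, AMH over control, with its standard error (horizontal axis, edgeR with TMM scaling) for 37 of the 38 tested genes, grouped by role. Blue points are genes with every AMH library below every control (19 drawn), red points those with every AMH library above every control (4), and grey points those whose groups overlap. Most points lie left of 0, where 3 of the 38 lie with oocyte-marker scaling, and the 2 farthest to the right are Cep112 and Cep72.

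Among proteins of the pericentriolar material and the spindle pole, 8 of 9 tested genes had a negative log2 fold change. Pcnt encodes pericentrin, the scaffold of the matrix and of the acentriolar organizing centres of oocytes (10, 76351263 to 76442786). It had 514, 563 and 369.7 CPM in controls 1, 2 and 3, against 252, 294 and 316 CPM in AMH 1, 2 and 3. Every AMH library was below every control, and the log2 fold change of -0.75 ± 0.21 (SE) had the smallest p of the 38 genes. Cep192, a scaffold that brings Aurora A and polo-like kinases to the matrix (18, 67800107 to 67885170), had 85.7, 77.7 and 72.7 CPM in control against 34.5, 64.0 and 56.2 CPM in AMH libraries. Its groups did not overlap either, and AMH 1 was the lowest library (-0.61 ± 0.25).

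Cdk5rap2 encodes a protein of the matrix that binds and activates gamma-tubulin ring complexes (4, 70216856 to 70410443). It had 61.9, 73.2 and 37.1 CPM in controls 1, 2 and 3, against 34.5, 45.5 and 25.5 CPM in AMH 1, 2 and 3. Here control 3 and AMH 3 were the lowest of their groups, so that control 3 lay below AMH 2 and the groups overlapped (-0.71 ± 0.32). Numa1, which focuses microtubule minus ends at spindle poles with dynein (7, 101934111 to 102014964), had 273, 278 and 243 CPM in control against 193, 257 and 227 CPM in AMH libraries. AMH 2 lay above control 3, and the log2 fold change of -0.23 ± 0.17 was smaller than that of Pcnt. The difference between these genes was not tested.

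Cep57 and Cep57l1 are paralogues. Cep57l1 (10, 41718840 to 41809871) had 252, 226 and 208 CPM in control against 113, 122 and 202 CPM in AMH libraries, with AMH 3 just below control 3 (-0.65 ± 0.25). Cep57, which helps to hold the matrix together, had 23.1 ± 3.19 CPM in control against 21.2 ± 2.05 CPM in AMH libraries (n = 3 each, SD), a difference within the spread of the libraries. Cep68, a protein of the linker between centrioles, likewise had 32.4 ± 2.27 and 32.2 ± 2.08 CPM. Cep72, the gene of this role with higher values in AMH libraries (13, 74036500 to 74062299), helps to bring gamma-tubulin complexes to the centrosome. It had 3.38, 2.76 and 6.96 CPM in controls 1, 2 and 3, against 11.2, 8.29 and 7.82 CPM in AMH 1, 2 and 3. The groups did not overlap, but control 3 was close to AMH 3 (1.06 ± 0.41). Without control 3 Cep72 passed the test (edgeR log2 fold change 1.56, adjusted p = 0.0185), while without control 2 the log2 fold change was 0.81 (adjusted p = 0.217).

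**Figure D2:**
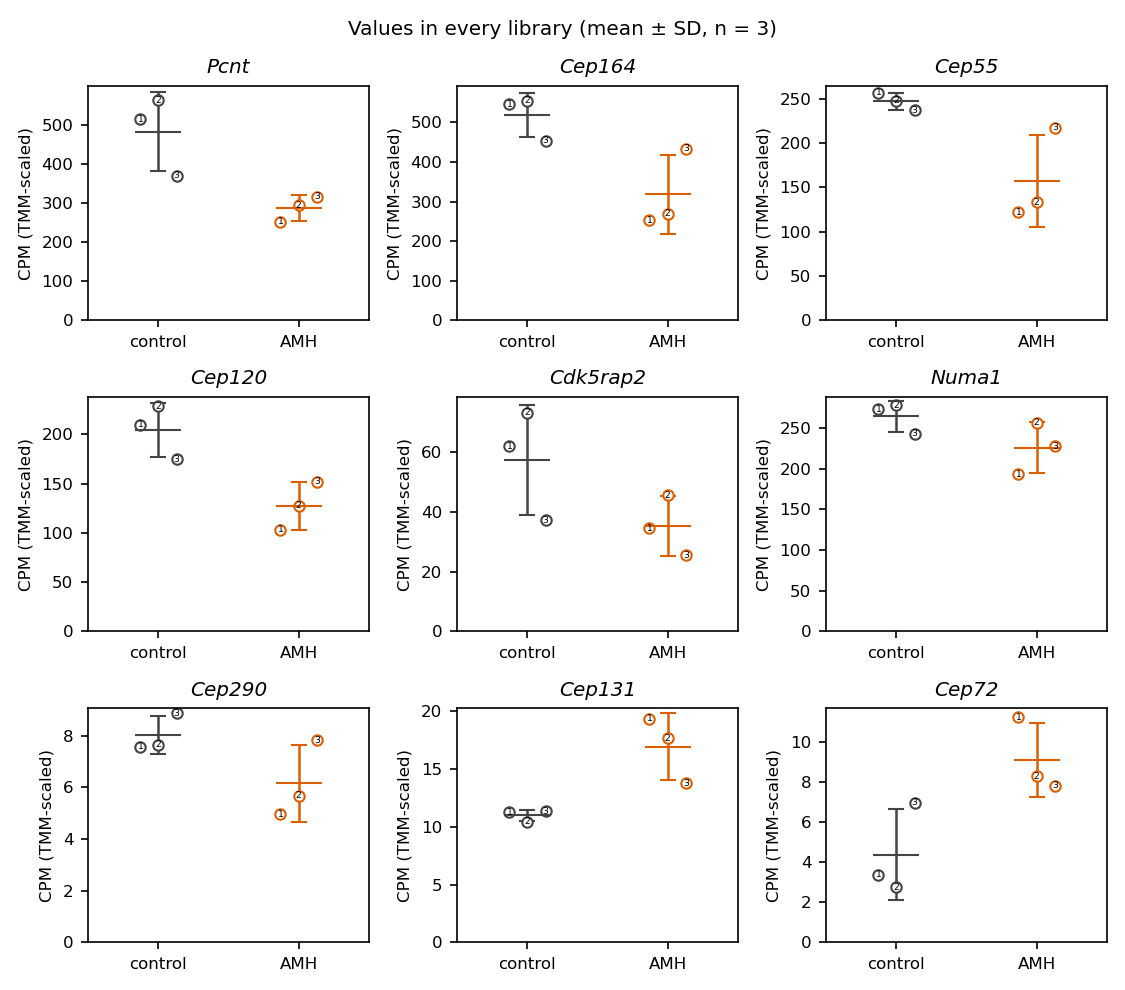
CPM (vertical axes, TMM-scaled, from 0) of 9 centrosomal genes in 3 control and 3 AMH libraries. Circles carry the replicate number, and the bars give the mean ± SD. For Cep164 and Cep55 the circle of AMH 3 lies close to control 3, and for Cdk5rap2 control 3 and AMH 3 are the lowest of their groups.

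Among genes of centriole assembly and length, 7 of 9 had a negative log2 fold change. Cep120, needed for centrioles to elongate (18, 53681724 to 53744547), had 209.7, 228 and 175 CPM in control against 103, 128 and 152 CPM in AMH libraries. The groups did not overlap (-0.68 ± 0.20). Cep85l, a paralogue of Cep85 (10, 53273443 to 53379947), had the lowest log2 fold change of all 38 genes, -0.89 ± 0.28. Its values were 74.0, 83.97 and 44.9 CPM in control against 38.6, 42.2 and 28.8 CPM in AMH libraries, without overlap though control 3 and AMH 2 were close. Cep135, a protein of the cartwheel on which a centriole forms, had 42.3 ± 14.2 CPM in control against 25.7 ± 3.11 CPM in AMH libraries (n = 3 each, SD), and its groups overlapped. Cep152, which recruits the kinase that starts centriole duplication, had 16.6 ± 4.93 and 11.8 ± 2.62 CPM, also with overlap.

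Cep63 and Cep97 had positive log2 fold changes in this role. Cep63, the partner of Cep152 (9, 102584588 to 102626534), had 18.2, 15.6 and 14.2 CPM in control against 22.1, 22.3 and 17.3 CPM in AMH libraries, and AMH 3 lay inside the control range (0.37 ± 0.22). Cep97, which caps growing centrioles (16, 55899888 to 55934855), had 4.03, 5.34 and 5.94 CPM in control against 7.56, 6.25 and 5.58 CPM in AMH libraries. Control 3 lay above AMH 3, so the groups overlapped (0.34 ± 0.28).

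Genes of the appendages of the older centriole and of centriole cohesion were split, with 5 positive and 5 negative log2 fold changes among 10. Cep164, a distal appendage protein that starts ciliogenesis (9, 45766946 to 45828691), had 545, 555 and 453 CPM in control against 252, 269.6 and 433 CPM in AMH libraries. AMH 1 and 2 were far below the controls and AMH 3 was just below control 3 (-0.70 ± 0.25). Without AMH 3 Cep164 passed the test (edgeR log2 fold change -1.02, adjusted p = 0.0400). It did not pass with all 6 libraries (adjusted p = 0.118), without control 3 (0.0617) or without control 2 (log2 fold change -0.66, adjusted p = 0.210). Cep83, at the base of the distal appendages (10, 94688654 to 94790853), had 67.4, 68.7 and 46.4 CPM in control against 36.6, 36.6 and 45.9 CPM in AMH libraries. Again AMH 3 lay directly under control 3 (-0.62 ± 0.22).

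The same role holds the paralogues Cep170 and Cep170b. Cep170b had 256 ± 36.6 CPM in control against 162 ± 52.3 CPM in AMH libraries (n = 3 each, SD), and Cep170, a subdistal appendage protein, had 49.4 ± 4.74 and 53.2 ± 10.3 CPM. The difference in change between the paralogues was not tested. Cep19, which acts at the older centriole when a cilium starts (16, 32099800 to 32108069), had 7.97, 4.85 and 8.97 CPM in control against 12.2, 11.3 and 10.7 CPM in AMH libraries. Every AMH library was above every control (0.65 ± 0.30, and 0.41 without control 2). Cep112 (11, 108425192 to 108860615) had 1.15, 0.467 and 2.29 CPM in control against 3.23, 2.89 and 2.78 CPM in AMH libraries, again without overlap (1.19 ± 0.55). Without control 3 it passed the test (edgeR log2 fold change 1.87, adjusted p = 0.0264), while without control 2 the log2 fold change was 0.77 (adjusted p = 0.234). Cep89, of the distal appendages, had 14.6 ± 1.60 and 19.7 ± 3.71 CPM with overlap.

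Of 7 genes of cilia, their transition zone and centriolar satellites, 6 had a negative log2 fold change. For 5 of those the groups did not overlap, against 23.3% of all tested genes lower without overlap. Cep78, a centriole wall protein (19, 15955774 to 15984989), had 169, 166 and 134 CPM in control against 86.6, 84.7 and 128 CPM in AMH libraries (-0.65 ± 0.22). AMH 3 again lay near control 3. Cep41, needed for glutamylation of tubulin in cilia (6, 30653457 to 30693749), had 25.7, 31.2 and 19.6 CPM in control against 13.2, 15.3 and 16.5 CPM in AMH libraries. Cep162, which marks the axoneme for the transition zone (9, 87189577 to 87255536), had 38.6, 40.3 and 31.5 CPM in control against 20.6, 26.1 and 25.5 CPM in AMH libraries. Both were without overlap, with log2 fold changes of -0.77 ± 0.24 and -0.61 ± 0.20.

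Cep290, a transition zone protein (10, 100487558 to 100574840), had low values of 7.57, 7.63 and 8.85 CPM in control against 4.96, 5.66 and 7.82 CPM in AMH libraries. AMH 3 lay between the controls (-0.38 ± 0.27), and 7.58% of its exonic bases overlap a gene on the other strand. Cep131, a satellite protein, was the gene of this role with higher values (11, 120064430 to 120086827). It had 11.3, 10.5 and 11.3 CPM in control against 19.4, 17.7 and 13.8 CPM in AMH libraries, every one above every control (0.62 ± 0.23). Leaving out control 3 and AMH 3 together, it passed the test (edgeR log2 fold change 0.79, adjusted p = 0.0282). Without control 2 alone the log2 fold change was 0.57 (adjusted p = 0.220).

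Cep55, which recruits the abscission machinery to the midbody at the end of cell division (19, 38055025 to 38074425), had 257, 248 and 237 CPM in control against 122, 133 and 217 CPM in AMH libraries. The groups did not overlap and AMH 1 and 2 were far below AMH 3 (-0.65 ± 0.24). Without AMH 3 the log2 fold change was -0.98 (edgeR adjusted p = 0.0400), while without control 2 it was -0.66 (adjusted p = 0.208). Cep95 (11, 106789252 to 106819930) had 88.3, 85.8 and 64.5 CPM in control against 44.9, 50.7 and 56.2 CPM in AMH libraries, and Cep70 (9, 99243367 to 99300404) had 76.7, 72.9 and 61.4 CPM in control against 37.4, 37.7 and 58.0 CPM in AMH libraries. Neither overlapped (-0.65 ± 0.19 and -0.67 ± 0.23). Cep295nl, the gene left out by the count filter, had 0, 0 and 2 counts in control and 23, 15 and 3 counts in AMH libraries, and no fold is given for it.

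Adjusted p of the genes named above ran from 0.116 (Pcnt) to 0.351 (Cep97) among those with a given log2 fold change, by edgeR's test on all 6 libraries. For the 9 genes not described one by one, log2 fold changes lay between -0.58 (Cep295) and 0.01 (Cep350). Among them 8 were negative, and 6 of these were without overlap, against 23.3% of all tested genes lower without overlap.

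Levels between genes were compared per length, in the FPKM values the authors deposited (fragments scaled to gene length and library size). In control oocytes Cep55 was highest with 85.3 ± 4.34 FPKM, ahead of Cep78 with 58.8 ± 7.83, Cep164 with 49.7 ± 5.88 and Cep120 with 43.0 ± 6.08 FPKM (SD, n = 3 each). This order was the same in each of the 3 controls. Pcnt with 38.1 ± 8.24 FPKM and Cep57l1 with 37.4 ± 4.04 FPKM followed, and Numa1 had 32.0 ± 2.65 FPKM. Pcnt had 40.9, 44.5 and 28.8 FPKM in controls 1, 2 and 3 and Cep57l1 had 41.6, 37.1 and 33.6 FPKM, so the order of those neighbours changed between libraries. Numa1, with 29.0 FPKM in control 3, was above Pcnt there. In all 14 of the 39 genes had at least 10 FPKM in the mean of the controls, 19 had 1 to 10 FPKM, and 6 were under 1 FPKM. The transition zone gene Cep290 was the highest of these 6 (0.661 ± 0.0518 FPKM), while Cdk5rap2 had 4.23 ± 1.39 and Cep192 had 6.04 ± 0.573 FPKM.

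Log2 fold changes were lower at higher levels, with a Spearman rho of -0.575 over the 38 genes and -0.214 over 15249 tested protein-coding genes. The 2 changes largest in size were positive and in genes of low level, Cep112 (mean of 0.334 FPKM over the 6 libraries) and Cep72 (0.798 FPKM). Tested protein-coding genes were put into 4 classes of equal size by mean FPKM, and the 12 centrosomal genes in the highest class (10.8 FPKM or more) were all negative with TMM scaling, with a median log2 fold change of -0.65, and 11 were without overlap. In that class the median over all 3812 genes was -0.40, and 43.5% were lower without overlap. The next class held 13 centrosomal genes with a median of -0.55, against 0.13 for all its genes. In the lower classes the medians were -0.12 for 10 and -0.12 for 3 centrosomal genes, against 0.51 and 0.48 for all. Thus the centrosomal median lay below that of all genes in each class, and it was nearest to it in the highest class. That class had a negative median over all its genes too.

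**Figure D3:**
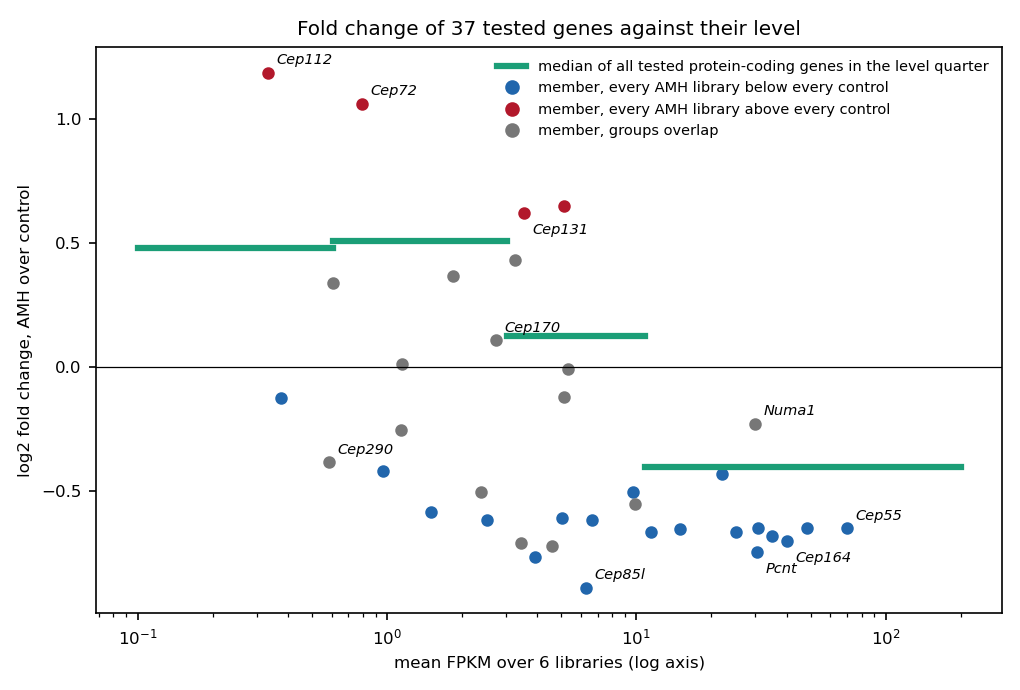
Log2 fold change, AMH over control (vertical axis), against mean FPKM over the 6 libraries (horizontal log axis) for 37 of the 38 tested genes. Green bars give the median of all tested protein-coding genes in each of 4 classes of FPKM, with the outer bars cut off at the edges of the plot. With TMM scaling, unlike oocyte-marker scaling, the 11 genes drawn in the highest class are all below 0, and the bar of that class is at -0.40.

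Gene length went weakly with the fold change over all tested protein-coding genes (Spearman rho -0.149 across 15249 genes, which are not independent) and not within the 38 centrosomal genes (rho 0.0104). The centrosomal genes are long, and 19 of the 38 are in the longest of 4 equal classes of tested protein-coding genes (6610 bases or more), where the median log2 fold change was -0.21 over all genes and -0.58 over the centrosomal ones. In the shortest class all genes had a median of 0.44. Over the 12 centrosomal genes of 4243 to 6609 bases the median was -0.49, against 0.11 for all genes of that length. The coding part is long too, with a median of 2862 bases in 37 genes against 1398 bases over 14367 tested protein-coding genes. The part that level or length has in the lower values was not tested.

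The direction depended on the scaling of the libraries. A change of scaling moves all genes by nearly the same amount, so the distance from other genes could change little with it. Scaled to library size only, the centrosomal median was -0.22 and that of all genes 0.26, and with upper-quartile scaling they were -0.74 and -0.23. With scaling to the summed oocyte markers the medians were 0.25 and 0.73, and 35 of the 38 genes were then positive. The distance between both medians was -0.49 with TMM and with DESeq2's size factors, -0.48 with library size only and with oocyte-marker scaling, and -0.51 with upper-quartile scaling. Across tools and filters, which can move it, the distance ran from -0.72 with DESeq2's own fit to -0.40 with limma on log2(FPKM + 1). DESeq2's own fit was run without an expression filter, and its medians were -0.48 for the centrosomal genes and 0.24 for all. With edgeR and no filter on low counts the distance was -0.72 too. Of the 29 negative genes 3 stayed negative under all of these scalings (Cep164, Cep41 and Cep85l). With oocyte-marker scaling they did so only just, at -0.028, -0.016 and -0.059 (edgeR adjusted p of 0.90, 0.98 and 0.95). Of the 9 positive genes 7 stayed positive (all but Cep170 and Cep350). Both counts depend on the scalings chosen, which moved the median of all genes farther up (to 0.73) than down (to -0.23). Relative to the oocyte markers the summed centrosomal CPM amounted to 9.04%, 8.59% and 8.82% in controls 1, 2 and 3, and to 10.03%, 11.5% and 8.07% in AMH 1, 2 and 3. AMH 1 and 2 were thus above and AMH 3 below the controls by this measure.

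**Figure D4:**
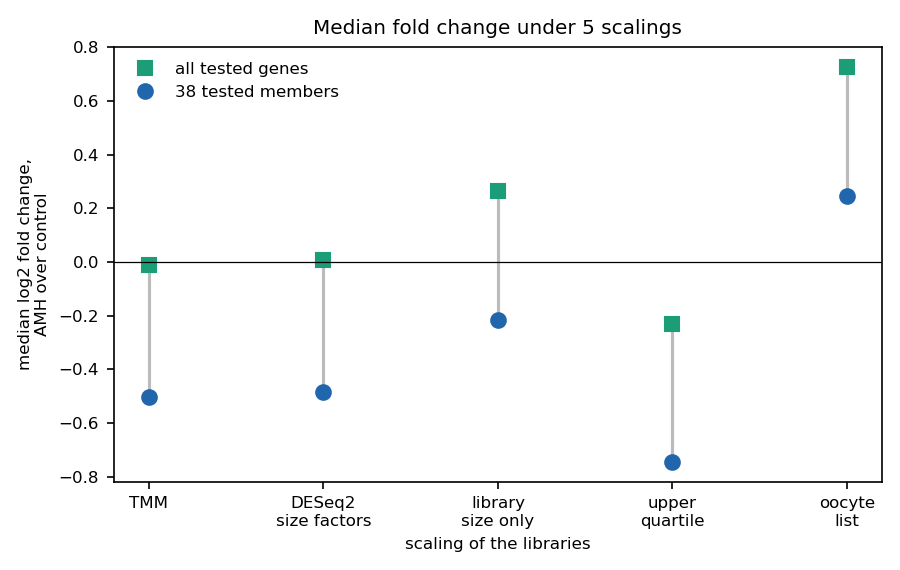
Median log2 fold change, AMH over control (vertical axis), of the 38 tested centrosomal genes (blue circles) and of all tested genes (green squares) under 5 scalings of the libraries (horizontal axis). The circle lies below the square in each, and it is above 0 with oocyte-marker scaling (0.25). A change of scaling moves circle and square by nearly the same amount.

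Control 3 and AMH 3 stood apart within their groups, in 2 patterns. In 27 of 38 genes control 3 was the lowest control, as it was in 41.3% of all tested genes. In 15 of the 38 (39.5%) control 3 was the lowest control and AMH 3 the highest AMH library, so that both met in the middle. This was so in 24.7% of all tested genes. Both shares also depend on how often control 3 was the lowest control. Cep164, Cep55, Cep57l1, Cep70, Cep78 and Cep83 are of this kind. In 8 others, among them Cdk5rap2, Cep63, Cep85l and Cep135, control 3 and AMH 3 were the lowest of their groups, as in 9.2% of all tested genes. The median log2 ratio to the control mean over the 38 genes was 0.08, 0.07 and -0.18 in controls 1, 2 and 3, against -0.66, -0.43 and -0.28 in AMH 1, 2 and 3. AMH 3 was still below control 3 in 31 of the 38 genes, against 48.9% of all tested genes. It was within 10% of control 3, above or below, in 14 of the 38 (36.8%), against 29.6% of all.

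Markers of other cells moved with the groups as well. Summed over 28 cumulus and granulosa markers there were 2196, 1343 and 5946 CPM in controls 1, 2 and 3, against 6783, 6225 and 5390 CPM in AMH 1, 2 and 3, with control 3 inside the range of the treated libraries, and 24 of 28 had a positive log2 fold change. The AMH receptor Amhr2 had 0.966 to 18.8 CPM in control against 27.2 to 35.9 CPM in AMH libraries. Markers of oviduct secretory and epithelial cells, 15 genes, summed to 32.3 to 139.5 CPM in control against 159 to 655 CPM in AMH libraries, with Ovgp1 at 2.52 to 21.7 and 31.8 to 379 CPM. Foxj1, the defining factor of multiciliated cells, had 0.202, 0.0623 and 0.167 CPM in control against 5.43, 2.54 and 1.04 CPM in AMH libraries. The list of 36 multiciliated markers did not follow it in sum, with 279 to 430.3 CPM in control against 234 to 296 CPM in AMH libraries. Even so, 17 of its 32 tested genes were higher and 4 lower without overlap, against 26.9% and 23.3% of all tested genes. Immune and blood markers, 19 genes, summed to 23.2 to 100.1 CPM and 149 to 495 CPM, and 15 markers of endothelium and stroma to 242 to 257 CPM and 149 to 202 CPM. The 4 centrosomal genes that were higher without overlap are Cep19, Cep72, Cep112 and Cep131. Foxj1, Ovgp1 and Amhr2 were higher without overlap too, as were 26.9% of all tested genes. That the 4 genes went with these markers between the groups was therefore fixed by how they were picked. Within the AMH libraries the 4 genes were lowest in AMH 3, as were 42.6% of all tested genes. Foxj1, Ovgp1 and the summed cumulus and granulosa markers were lowest there too. Of the granulosa markers, Fshr was lowest in AMH 3 (7.30, 7.73 and 6.77 CPM in AMH 1, 2 and 3) but Amhr2 was highest. The part of the other cells in either direction was not tested.

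Centrosome genes outside the Cep names were counted in the same way. Of 30 other tested centriole genes 23 were negative, with a median of -0.52. Without overlap 18 were lower and 4 higher, against 23.3% and 26.9% of all tested genes. Ccp110, which caps centrioles with Cep97, had 147, 150.2 and 104 CPM in control against 67.6, 90.7 and 81.2 CPM in AMH libraries, while Lrrc45, of the linker between centrioles, had 6.42, 4.33 and 13.6 CPM in control against 28.6, 24.2 and 22.2 CPM in AMH libraries. Poc1b had the smallest p of this list, with 96.1 ± 6.29 and 62.2 ± 7.17 CPM (SD, n = 3 each). None of the 30 passed edgeR's test over all genes. At an unadjusted p under 0.05 there were 15 lower and 3 higher, against 17.3% and 20.2% of all tested genes.

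Of 30 other genes of the matrix, satellites and gamma-tubulin complexes, 20 were negative, with a median of -0.39. Without overlap 11 were lower and 7 higher (36.7% and 23.3%), against 23.3% and 26.9% of all tested genes. Nedd1, which ties gamma-tubulin complexes to the matrix, had 397, 385 and 327 CPM in control against 195, 220.4 and 263 CPM in AMH libraries, and Ccdc14 had 489.7 ± 26.4 and 289.8 ± 76.4 CPM (SD, n = 3 each). Mzt2, a small subunit of those complexes, had higher values in AMH libraries, with 2.71 ± 1.11 and 7.49 ± 0.812 CPM. Among 31 genes of acentriolar spindle pole assembly 22 were negative, with a median of -0.20. Without overlap 8 were lower and 7 higher (25.8% and 22.6%), near the shares of all tested genes. Plk1, the polo-like kinase, had 489, 509.5 and 388 CPM in control against 227, 229 and 369 CPM in AMH libraries, with AMH 3 below control 3, and Miip and Kiz had higher values (4.49 ± 1.47 against 11.4 ± 1.55 and 10.7 ± 2.09 against 17.96 ± 0.394 CPM). No gene of either list passed edgeR's test. At an unadjusted p under 0.05 there were 11 lower and 5 higher in the first and 9 lower and 7 higher in the second, beside 17.3% lower and 20.2% higher over all tested genes. DESeq2 called 4 lower and 2 higher of the other centriole genes, 3 lower and 5 higher of the matrix list, and 0 lower and 5 higher of the spindle pole list. Over all genes it called 6.29% lower and 16.4% higher. The first 2 lists share Ofd1 and Haus6.

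The 3′ ends of the transcripts were examined because oocytes store mRNA with short poly(A) tails under the control of Cpeb1, which binds cytoplasmic polyadenylation elements near the polyadenylation signal. Such an element (TTTTAT or TTTTAAT, read on the transcript strand) occurred in the last 100 bases of the annotated transcript in 14 of 37 centrosomal genes (37.8%), and in 19.2% of 14367 tested protein-coding genes. A match is a description and not a site of binding. The following are 30-base windows around the element, in capitals, of genes described above (GENCODE M21 transcripts, 5′ to 3′):
Pcnt: tcagtttattctTTTTATtggcaaaacaaa
Cep55: accaaaatgtgTTTTATtccttcagatttt
Cep57l1: ggtatcatcTTTTATactttaaaattagtg
Cep70: tatgtaatgtacTTTTATaaagaaataaga
Cep135: agtaaattcatgTTTTATagcaaaatatga
Cep290: tagttccaTTTTATacatcaagtattatgt

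The element of Pcnt begins 35 bases before the end of the transcript, and that of Cep55 89 bases before it. The 14 centrosomal genes with an element had a median log2 fold change of -0.60, and 12 were negative. The 23 without one had a median of -0.25, and 16 were negative. Over all tested protein-coding genes the medians were -0.20 with and 0.16 without an element. Lower values also occurred without an element in this window, as in Cep164, Cep120 and Cdk5rap2, and Cep78 is not among the 37 genes searched.

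Promoter windows of 300 bases (250 before to 50 after the start, RefSeq, GRCm38.p6) were found for 33 of the 39 genes. They were rich in CpG, with a median of 23.5 per window over 40 windows against 18 over the windows of tested protein-coding genes. The letters CCAAT occurred on either strand in 42.5% of the centrosomal windows and 37.6% of those of tested genes, and GTTGCC, the half-site of RFX factors, which drive cilia genes, in 25% against 12.9%. The E-box CACGTG was in 5.0% against 9.41%, the TATA box TATAAA in 5.0% against 7.9%, the E2F motif TTTGGCGC or TTTCCCGC in 2.5% against 2.6%, and the homeobox motif TAATTA in 0% against 3.02%. Windows are printed for 2 genes of lower values (Pcnt, chr10:76442863-76443162, and Cep164, chr9:45828614-45828913) and 2 of higher values (Cep72, chr13:74062236-74062535, and Cep131, chr11:120086778-120087077), all on the minus strand and 5′ to 3′, with matches of the CCAAT, E-box, TATA-box and RFX letters on either strand in capitals.
Pcnt: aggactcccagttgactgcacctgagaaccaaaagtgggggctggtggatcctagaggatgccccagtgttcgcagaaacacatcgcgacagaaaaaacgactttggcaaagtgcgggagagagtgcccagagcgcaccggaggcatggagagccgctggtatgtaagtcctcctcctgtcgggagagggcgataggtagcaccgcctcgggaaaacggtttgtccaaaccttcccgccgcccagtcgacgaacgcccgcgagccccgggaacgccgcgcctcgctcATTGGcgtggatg
Cep164: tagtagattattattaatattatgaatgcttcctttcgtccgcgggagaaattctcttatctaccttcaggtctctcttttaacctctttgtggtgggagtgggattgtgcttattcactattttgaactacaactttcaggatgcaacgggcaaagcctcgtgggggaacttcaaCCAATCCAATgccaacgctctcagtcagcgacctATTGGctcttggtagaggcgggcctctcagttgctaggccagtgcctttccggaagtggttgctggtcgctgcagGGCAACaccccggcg
Cep72: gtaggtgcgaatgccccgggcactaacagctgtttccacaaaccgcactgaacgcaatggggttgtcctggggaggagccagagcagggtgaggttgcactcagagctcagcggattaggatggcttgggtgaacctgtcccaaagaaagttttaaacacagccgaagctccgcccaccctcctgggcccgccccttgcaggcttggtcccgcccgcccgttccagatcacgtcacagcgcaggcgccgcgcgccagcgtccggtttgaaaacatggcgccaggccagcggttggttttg
Cep131: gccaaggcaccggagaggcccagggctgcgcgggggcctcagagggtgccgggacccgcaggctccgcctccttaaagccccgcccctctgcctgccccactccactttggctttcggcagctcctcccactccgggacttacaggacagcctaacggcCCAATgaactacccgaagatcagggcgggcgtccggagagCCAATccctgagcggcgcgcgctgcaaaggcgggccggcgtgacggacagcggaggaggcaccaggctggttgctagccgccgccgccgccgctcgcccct

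Of these windows that of Cep164 holds the most matches, 3 of CCAAT and 1 of GTTGCC, and has 12 CpG. Pcnt has 1 match of CCAAT and 26 CpG. Cep131 has 2 matches of CCAAT and 29 CpG, and Cep72 has none of the marked letters and 21 CpG.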

How the data were processed

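RNA of oocytes was measured in 3 control and 3 AMH libraries. The table that the authors deposited holds raw counts of each gene and FPKM values. The submitters' processing notes list the build GRCm38 (mm10) and the tools DESeq2 1.20.0, featureCounts 1.5.0-p3 and HISAT2 2.0.5. The labels' protocols allow a stranded or an unstranded library, and the counting setting is not given in the sources used here, so reads of a gene and of an overlapping antisense gene cannot be told apart. Over 10% of exonic bases overlap another gene in 2 members, Cep295 and Cep250. Positions are those of the file, and 35 of 39 are identical in GENCODE M21.

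Counts were tested with edgeR 4.0.16 (R 4.3.3; TMM, default expression filter, quasi-likelihood test, robust, group alone) over 18868 genes with Benjamini-Hochberg adjustment at 0.05. CPM values use TMM-scaled library sizes. Alternatives used DESeq2 1.42.0, limma 3.58.1 (voom, and log2(FPKM + 1) with the deposited FPKM in genes above 1 FPKM in 3 libraries), other scalings and filters, a replicate block, and each library left out. The tests were tried on simulated counts. No 2 libraries agreed within sampling noise. Genes given in every library were chosen by a rule: 7 preset genes, the 5 of highest mean FPKM, the 6 of smallest p, and the 2 of smallest p in each direction and role. Members, roles and lists were chosen with earlier results of these data known. Classes of length and FPKM are the 4 equal parts of the tested protein-coding genes. 1 tested gene is counted but not reported by name here, and it is left out of the plots of single genes.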

Additional observations from a re-analysis of the deposited data

How the results depend on the processing

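Counts of centrosomal genes past the test depended on the libraries and the tool. Leaving out each library in turn gave 0 to 3 genes higher and 0 to 12 lower (0% to 26.8% and 0% to 11.2% of all tested genes), with medians of -0.62 to -0.45. Without overlap 4 to 9 were higher and 19 to 25 lower, against 27.7% to 39.2% and 24.3% to 35.1% of all tested genes. Leaving out control 3 and AMH 3 together gave 5 higher and 19 lower (29.4% and 21.6% of all), and 10 higher without overlap (44.6% of all). DESeq2 gave 3 lower, and limma-voom with sample quality weights, in which control 1 weighed 6.58 and AMH 3 0.25, gave 7 higher and 25 lower (39.1% and 35.8% of all genes). The other fits called 0. With library size only the median was -0.22, with 7 lower without overlap (12.9% of all tested genes), and Numa1 turned to 0.0481. With upper-quartile scaling the median was -0.74. With FPKM 2 genes were higher without overlap (27.9% of all), under either pseudocount, since fewer genes passed that filter. With oocyte-marker scaling the median turned to 0.25, with 7 higher and 0 lower without overlap, against 37.4% and 0.774% of all tested genes. Log2 fold changes then turned to 0.0038 for Pcnt, 0.14 for Cdk5rap2, 0.53 for Numa1, 0.13 for Cep192, 0.0104 for Cep55, 0.29 for Cep290, 0.0450 for Cep78, 0.0402 for Cep120, 0.0148 for Cep57l1, 0.0869 for Cep95, 0.13 for Cep162, 0.12 for Cep83 and 0.0195 for Cep70. The cause was not tested. Same-numbered libraries did not deviate together (correlations of deviations 0.0596, -0.103 and -0.25), and with the replicate block 0 genes were called, with a median of -0.49.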
